A study of Mus musculus with 26 samples.

Results

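Subcutaneous Panc02 tumors from mice that received an antibody against PD1 together with dietary β-hydroxy-β-methylbutyrate (HMB) were compared with Panc02 tumors from mice that received the antibody alone. The tumors were chosen by their titles, with no measured value involved, and they came to 7 anti-PD1 + HMB tumors and 6 anti-PD1 tumors, 13 of the 26 tumors in the series. Panc02 is a mouse pancreatic ductal adenocarcinoma line that grows in C57BL/6 mice with an intact immune system. All hosts were male C57BL/6 mice aged 6 to 8 weeks on arrival and fed the AIN-93G diet. In the anti-PD1 + HMB group, HMB made up 1% of that diet by weight and was started 1 week ahead of the cell injection. Both groups received 200 µg of anti-PD1 at intervals of 3 days once tumors had formed. The other 13 tumors, 7 HMB and 6 control, came from the same design with isotype antibody in place of anti-PD1. The study's short design note gives other group sizes than the sample titles, and the titles were followed.

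HMB is a breakdown product of leucine that is taken as a supplement to maintain muscle, where it acts on mTOR signaling and on protein breakdown. PD1, encoded by Pdcd1, is an inhibitory receptor that T cells display after activation, and antibodies that block it release T cell receptor signaling from that brake. The question put by this comparison is which genes of the tumor differ when HMB is added to PD1 blockade. RNA came from homogenized tumors, so cancer cells, immune cells, vessels and any adjoining fat, skin or muscle all contribute. In such bulk RNA, fewer cells of a type and less RNA per cell cannot be told apart.

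Each tumor was measured on 1 array, and precision is limited by how many arrays there were. The deposited values are on a log scale taken as log2, since the sources used here do not state the base, and every level and difference below is in those units. Background was set per group at the mean of the 95th percentiles of 5222 negative-control probe sets, which ran from 11.002 to 11.27 over the 13 arrays. By that level, 3999 of 19505 genes were above background in both groups. Array medians were between 6.97 and 7.11, and each array had 3846 to 4333 genes above background. Krt8, an epithelial keratin, was above background on all 13 arrays, whereas Krt19, a keratin of pancreatic ducts, and Epcam, an epithelial adhesion molecule, were below it on all 13. Several tumors stood apart from their group. Anti-PD1 + HMB tumor 7 was the highest of the 13 for B cell, T cell and adipocyte genes and the lowest for mitosis genes. Anti-PD1 + HMB tumors 4, 5 and 6 and, to a smaller extent, anti-PD1 tumor 6 were high for skeletal muscle genes. Many of the values below moved when these tumors were left out, and the larger moves are given beside the lists and genes concerned. Nothing in the sources states which tumors shared a cage or day, so p-values describe the spread between these tumors.

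No gene passed the test. With all 26 tumors in 1 limma fit and p-values adjusted by Benjamini-Hochberg over 19505 genes, 0 genes (0%) had an adjusted p under 0.05, and the smallest adjusted p was 0.9993, which therefore bounds every gene named below. At an unadjusted p under 0.05, 361 genes were higher in anti-PD1 + HMB tumors (1.85%) and 454 were lower (2.33%), 4.18% of genes in all. Among genes above background, 28 were higher (0.700%) and 62 were lower (1.55%), 2.25% in all. The methods' t-test gave 688 genes at an unadjusted p under 0.05 and 0 after adjustment. The differences were small for most genes: the median over all genes was -0.0094, and over genes above background it was -0.03, with 41.2% of them higher. Values were more spread in anti-PD1 + HMB tumors, with a median SD of 0.39 per gene, against 0.33 in anti-PD1 tumors. The histogram of p-values shows fewer small p-values than an even spread would hold.

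**Figure D1:**
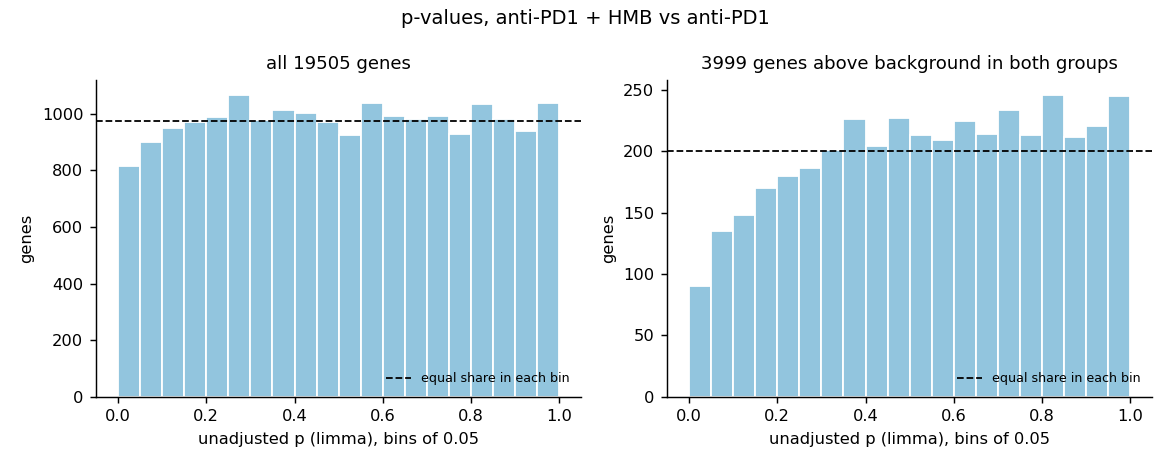
Number of genes (vertical axis) by unadjusted limma p (horizontal axis, bins of 0.05) for anti-PD1 + HMB against anti-PD1 tumors, for all 19505 genes on the left and the 3999 genes above background in both groups on the right, with a dashed line at an equal share per bin. The lowest bin holds 815 genes on the left and 90 on the right, below the line in both panels.

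The genes described next are the 12 with the smallest p in each direction among genes above background, and they are a description of the leading values, since none passed the adjusted test. Their differences were between 0.32 and 1.80 in size and their unadjusted p-values between 0.0037 and 0.024. On the higher side were a tensin, a caveolar coat protein, the shared mediator of TGF-beta signaling and a repressor of epithelial genes. On the lower side were a secreted semaphorin, an immunoglobulin-family membrane protein and several regulators of transcription. Without anti-PD1 + HMB tumor 7, all 24 kept their sign and 20 had an unadjusted p under 0.05, and without tumors 4, 5 and 6 of that group 17 did.

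Tns1 encodes tensin 1, which ties integrins to the actin skeleton at cell-matrix adhesions. Its lowest, median and highest values were 11.83, 13.15 and 14.71 in anti-PD1 + HMB tumors, against 10.69, 11.49 and 12.64 in anti-PD1 tumors. The difference was 1.80 ± 0.62 (SE; limma, unadjusted p = 0.0077). Of the 7 anti-PD1 + HMB tumors, 5 lay above every anti-PD1 tumor, and tumors 1 and 5 lay within the anti-PD1 range. The other tensins did not share this: the differences were -0.24 ± 0.29 for Tns2, 0.18 ± 0.27 for Tns3 and -0.61 ± 0.48 for Tns4 (SE).

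Cavin2 encodes a coat protein of caveolae, the flask-shaped pits of the plasma membrane. It had 12.93, 14.41 and 14.96 (lowest, median, highest) in anti-PD1 + HMB tumors, against 11.95, 13.53 and 13.65 in anti-PD1 tumors, a difference of 0.98 ± 0.36 (SE; limma, unadjusted p = 0.010). Here too, 5 of the 7 anti-PD1 + HMB tumors were above the anti-PD1 range, and tumors 1 and 5 were within it. Its partners were at -0.28 ± 0.14 for Cavin1 and -0.30 ± 0.20 for Cavin3 (SE). The membrane protein of caveolae, Cav1, was at -0.16 ± 0.18 (SE).

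Smad4 encodes the SMAD protein that carries TGF-beta and BMP signals into the nucleus with its receptor-activated partners, and it is often lost in human pancreatic cancer. Its values were 11.45, 11.91 and 12.49 in anti-PD1 + HMB tumors, against 11.10, 11.42 and 11.76 in anti-PD1 tumors (lowest, median, highest). That is a difference of 0.47 ± 0.16 (SE; limma, unadjusted p = 0.0074). Every anti-PD1 + HMB tumor was above the anti-PD1 mean, although 3 of them lay within the anti-PD1 range. Among the other SMADs, the receptor-activated Smad1, Smad2, Smad3 and Smad5 were between -0.17 and 0.10, and the inhibitory Smad6 and Smad7 were at 0.05 and 0.02.

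Zeb1, a zinc-finger repressor of epithelial genes that takes part in the epithelial-mesenchymal transition, had 11.74, 12.47 and 12.69 in anti-PD1 + HMB tumors, against 11.49, 11.69 and 12.27 in anti-PD1 tumors. The difference was 0.56 ± 0.21 (SE; limma, unadjusted p = 0.013), and 6 of the 7 anti-PD1 + HMB tumors were above the anti-PD1 mean. Il20rb, a receptor subunit shared by cytokines of the interleukin-20 family, had 13.39, 14.72 and 15.17, against 12.35, 13.83 and 14.42, a difference of 0.92 ± 0.36 (SE). The ranges of both genes overlapped between the groups. Nabp2, a protein that binds single-stranded DNA during repair, differed less, by 0.33 ± 0.13 (SE), but its ranges did not overlap: 13.10 to 13.72 in anti-PD1 + HMB tumors, against 12.62 to 13.09 in anti-PD1 tumors. It was the 1 gene above background without overlap (0.0250% of such genes), and 10 of all genes had none (0.0513%).

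The remaining higher genes had differences of 0.32 to 0.76. Nhsl1 was at 0.76, B4galnt1, a synthase of gangliosides, at 0.54, and Chd7, a chromatin remodeler, at 0.50. Fbxl20, an F-box protein of ubiquitin ligases, was at 0.45, Pkig, an inhibitor of protein kinase A, at 0.40, and Nr2c2, an orphan nuclear receptor, at 0.32. Tumor 7 was the highest anti-PD1 + HMB tumor for B4galnt1, Pkig, Chd7 and Nr2c2. Without it their differences were 0.35, 0.26, 0.31 and 0.28. It was also the highest for Smad4 and Zeb1, which were at 0.37 and 0.505 without it. Nhsl1 was at 0.46 without tumors 4, 5 and 6.

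Sema3c had the smallest p of the genes above background. It encodes a secreted class 3 semaphorin that signals through neuropilins and plexins in vessel and nerve guidance. Its values were 12.05, 14.13 and 14.39 in anti-PD1 + HMB tumors, against 14.14, 14.57 and 15.37 in anti-PD1 tumors (lowest, median, highest), a difference of -1.01 ± 0.32 (SE; limma, unadjusted p = 0.0037). Tumors 7, 4 and 3 of the anti-PD1 + HMB group were the lowest, and the other 4 were near the lower end of the anti-PD1 range. In the same family, Sema3b was at -0.96 ± 0.35 (SE) and below background, Sema3e at -0.39, Sema3f at -0.06, Sema3a at 0.43, Sema3g at 0.57 and Sema3d at 0.60.

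Igsf8, a membrane protein that binds tetraspanins, had 10.77, 11.08 and 11.97 in anti-PD1 + HMB tumors, against 11.53, 11.73 and 12.07 in anti-PD1 tumors, a difference of -0.61 ± 0.20 (SE; limma, unadjusted p = 0.0044). All anti-PD1 + HMB tumors but tumor 5 were below the anti-PD1 range. Gprc5a, an orphan receptor inducible by retinoic acid, had 10.33, 11.46 and 11.89, against 11.59, 11.98 and 12.32, a difference of -0.73 ± 0.29 (SE). The transcription regulators among the lower genes were Elk3, an ETS factor, at -0.45, Nab1, a corepressor of EGR factors, at -0.43, Gtf2h5, a subunit of TFIIH, at -0.38 and Phc2, a Polycomb subunit, at -0.36. Ciapin1, which serves the assembly of iron-sulfur proteins, was at -0.48, the deubiquitinase Otud4 at -0.45 and Csnk2a2, a catalytic subunit of casein kinase 2, at -0.39. Myo9b, an unconventional myosin, was at -0.33, and Ctnnbl1, a spliceosome protein, at -0.32. For Elk3, Nab1, Ciapin1 and Csnk2a2 the lowest value belonged to tumor 7, and without it their differences were between -0.29 and -0.28. Tumor 7 was also the lowest for Gprc5a, Otud4, Phc2, Myo9b and Gtf2h5. Without it these were at -0.58, -0.31, -0.29, -0.28 and -0.26.

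**Figure D2:**
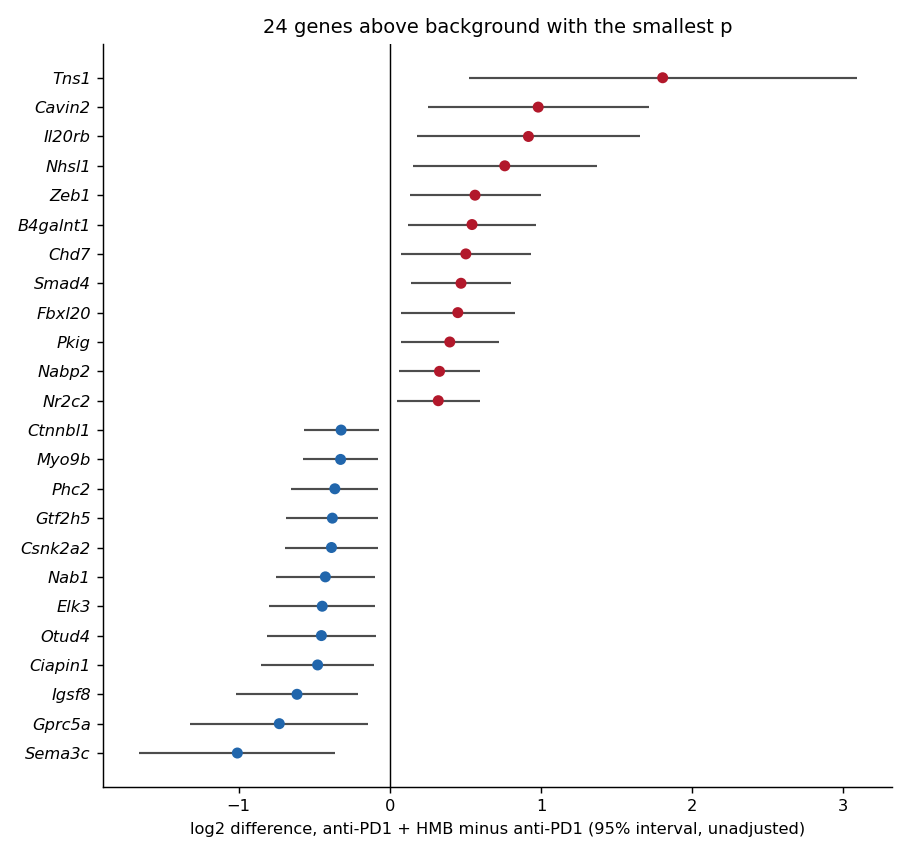
Log2 difference, anti-PD1 + HMB minus anti-PD1 tumors (horizontal axis), for the 24 genes above background with the smallest p, 12 in each direction. Points are limma estimates and bars are unadjusted 95% intervals, widest for Tns1 at 1.80 and narrowest for genes such as Nabp2 at 0.33.

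Over all genes, the smallest p-values belonged to dim genes that were below background on all 13 arrays. Pdp2, a phosphatase that switches the pyruvate dehydrogenase complex on, had 6.09, 6.52 and 7.03 in anti-PD1 + HMB tumors, against 7.01, 7.13 and 7.67 in anti-PD1 tumors, a difference of -0.71 ± 0.16 (SE; limma, unadjusted p = 0.00016). Of the anti-PD1 + HMB tumors, only the highest reached the lower end of the anti-PD1 range. In the mice without anti-PD1, the HMB minus control difference of Pdp2 was -0.61 ± 0.16 (SE). Nes, the intermediate filament nestin, was at 1.24 ± 0.30 (SE), with a median of 5.07 in anti-PD1 + HMB tumors and 3.73 in anti-PD1 tumors. Slc4a3, a chloride-bicarbonate exchanger, ranged from 3.77 to 5.79 in anti-PD1 + HMB tumors, against 5.88 to 6.29 in anti-PD1 tumors, without overlap. Gcdh, a mitochondrial enzyme of lysine and tryptophan breakdown, was at -0.68 ± 0.17 (SE), Gsdmc, a gasdermin, at -0.64 and Sbsn, a keratinocyte protein, at -0.80. Mettl27 was at 0.76 and Spata16 at 0.51.

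T cell genes were higher in anti-PD1 + HMB tumors by their sign, and none passed the adjusted test. All 19 measured genes of the T cell receptor complex and its coreceptors were higher, with a median difference of 0.63, and 4 of 19 had an unadjusted p under 0.05 against 1.85% of all genes in that direction. Without tumor 7 the median was 0.17, with 15 of 19 higher and 1 at an unadjusted p under 0.05, and without tumors 4, 5 and 6 it was 1.13. The list score, the mean of a tumor's centred log2 values over the list, had a lowest, median and highest value of -0.33, 0.67 and 3.66 in anti-PD1 + HMB tumors, against -0.58, 0.07 and 1.25 in anti-PD1 tumors. Tumor 7 alone lay above the anti-PD1 range, and the other 6 overlapped with it.

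Cd28, the costimulatory receptor that works with the T cell receptor, had 7.03, 7.28 and 11.16 in anti-PD1 + HMB tumors, against 5.25, 6.44 and 7.91 in anti-PD1 tumors, a difference of 1.32 ± 0.53 (SE), or 0.77 without tumor 7. Icos, an inducible costimulator, had 8.29, 9.01 and 12.08, against 6.92, 8.04 and 9.25, a difference of 1.29 ± 0.54 (SE), or 0.83 without tumor 7. Each of the 7 anti-PD1 + HMB tumors was above the anti-PD1 mean for both genes, while tumor 7 stood far above the rest. Cd6 and Cd5, surface receptors of T cells, were at 1.26 and 1.05, or 0.74 and 0.54 without tumor 7. Cd3e, a signaling chain of the T cell receptor and 1 of the 2 members above background, had 10.10, 11.83 and 14.24, against 10.32, 10.66 and 12.71. Its difference was 0.59 ± 0.66 (SE; limma, unadjusted p = 0.38), or 0.17 without tumor 7, with 4 of 7 anti-PD1 + HMB tumors above the anti-PD1 mean.

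Regulatory T cell genes leaned the same way and rested less on tumor 7. All 9 measured of 10 written genes were higher, with a median of 0.73. At an unadjusted p under 0.05, 4 were higher, against 1.85% of all genes. Without tumor 7 the median was 0.38, with 8 of 9 higher and 2 at an unadjusted p under 0.05. Foxp3, which defines these cells, was not measured by a named probe set, and all 9 measured genes were below background, so the lineage itself was not assessed.

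Ctla4, an inhibitory receptor that is high on regulatory T cells and shares its ligands with Cd28, had the smallest p of the list. Its values were 7.57, 8.66 and 10.25 in anti-PD1 + HMB tumors, against 5.55, 6.90 and 8.23 in anti-PD1 tumors, a difference of 1.76 ± 0.50 (SE; limma, unadjusted p = 0.0017). All 7 anti-PD1 + HMB tumors were above 5 of the 6 anti-PD1 tumors, and the difference was 1.499 without tumor 7 and 2.17 without tumors 4, 5 and 6. Tnfrsf4, the costimulatory receptor OX40, was at 0.93 ± 0.36 (SE), with values of 8.09 to 10.97 against 7.62 to 8.86. Ccr8, a chemokine receptor of tumor regulatory T cells, was at 0.78 ± 0.31 and Gpr83 at 0.73 ± 0.35 (SE). Leaving out tumor 7 gave 0.60 for Tnfrsf4, 0.64 for Ccr8 and 0.38 for Gpr83. Il2ra, the high-affinity interleukin-2 receptor chain, was at 0.47 ± 0.30 (SE).

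**Figure D3:**
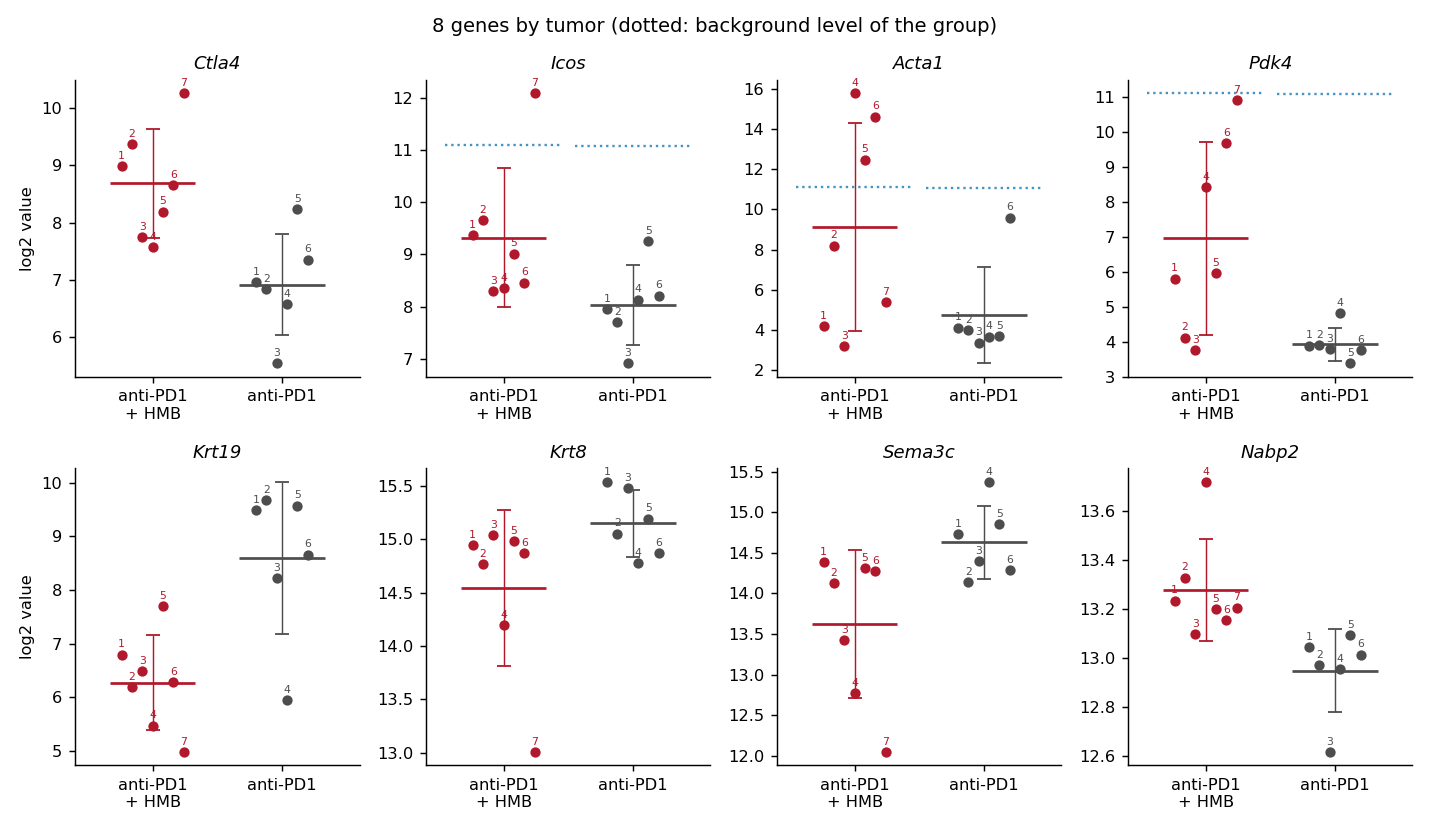
Log2 value (vertical axes) of 8 genes in 7 anti-PD1 + HMB tumors (left in each panel) and 6 anti-PD1 tumors (right), with tumor numbers beside the points, lines for mean and SD, and a dotted line for the background level where it falls within the axis. Ctla4 and Icos are higher and Krt19, Krt8 and Sema3c lower in anti-PD1 + HMB tumors by their means, Acta1 and Pdk4 are high in part of that group, and only Nabp2 has no overlap.

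Genes of T cell inhibition and killing were less one-sided, and none had an unadjusted p under 0.05. Of 14 checkpoint receptors and ligands, 8 were higher and 6 lower, with a median of 0.03. Pdcd1, which encodes the receptor that the antibody blocks, had 6.18, 8.55 and 9.08 in anti-PD1 + HMB tumors, against 6.51, 7.71 and 10.13 in anti-PD1 tumors. Its difference was -0.08 ± 0.59 (SE; limma, unadjusted p = 0.90) and its sign changed with the processing. Havcr2, the checkpoint receptor TIM-3, was at 0.58 ± 0.31 (SE). Of 19 cytotoxic granule and NK cell genes, 16 were higher with a median of 0.21, or 0.63 without tumors 4, 5 and 6. Prf1, which encodes perforin, was at -0.51 ± 0.66 and Gzma, a granule protease, at 0.49 ± 0.55 (SE), with Gzma at 0.29 without tumor 7 and 1.49 without tumors 4, 5 and 6. The values of both overlapped across nearly their whole range.

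A list of 11 genes joined the CXCR3 axis, by which effector T cells enter tumors, with other T cell attractants and receptors. Of these genes, 7 were higher, with a median of 0.49. Cxcr3 and, among the other receptors, Ccr7 were the 2 members with an unadjusted p under 0.05, against 1.85% of all genes. They were at 0.64 ± 0.26 and 0.49 ± 0.24 (SE). Without tumor 7 their differences were 0.44 and 0.25, and the list median was 0.13. The ligands of CXCR3 did not follow. Cxcl9 had 14.98, 16.71 and 17.18 in anti-PD1 + HMB tumors, against 15.65, 16.26 and 16.79 in anti-PD1 tumors. Its difference of -0.12 ± 0.59 (SE) changed sign with the processing. Cxcl10, another ligand of CXCR3, was at -0.76 ± 0.86 (SE), or -0.10 without tumor 7, and the ligand Cxcl11 at -0.24 ± 0.62 (SE).

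The B cell genes rested on 1 tumor. Of 18 measured genes, 17 were higher with a median of 0.75 and 0 at an unadjusted p under 0.05, but without tumor 7 the median was -0.21, with 3 higher and 15 lower. The B cell score was 6.81 in tumor 7 and between -0.72 and -0.25 in the other anti-PD1 + HMB tumors, against -0.85 to 1.2 in anti-PD1 tumors, where tumor 4 was the highest. Cd79a, a signaling chain of the B cell receptor, had 3.42, 3.66 and 14.99 in anti-PD1 + HMB tumors, against 3.22, 3.58 and 8.87 in anti-PD1 tumors. Ms4a1, which encodes CD20, had 2.11, 2.61 and 12.77, against 2.63, 2.93 and 5.84. Both were above background in tumor 7 only, and both had a negative difference without it, at -0.85 and -0.71. Ebf1, a transcription factor of early B cells and of adipocytes, was at 0.70 ± 0.57 (SE).

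Macrophage genes differed by small amounts, with signs split much as over genes at large. Of 18 measured, 7 were higher and 11 lower, while 52% of all genes and 58.8% of genes above background were lower. The list median was -0.20, or -0.07 without tumor 7, with 0 members at an unadjusted p under 0.05. Csf1r, the receptor on which macrophages depend, had 14.16, 14.58 and 15.00 in anti-PD1 + HMB tumors, against 14.07, 14.56 and 14.68 in anti-PD1 tumors, a difference of 0.14 ± 0.20 (SE). Adgre1, an adhesion receptor of mature macrophages, was at -0.55 ± 0.41, Fcgr1, an immunoglobulin receptor, at -0.56 ± 0.35 and Laptm5, a lysosomal protein of blood cells, at 0.30 ± 0.22 (SE). The 2 lowest of these, Adgre1 and Fcgr1, were at -0.16 and -0.27 without tumor 7.

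Genes of the alternatively activated, M2-like state were higher for 15 of 17, with a median of 0.48, or 0.29 without tumor 7, and 1 at an unadjusted p under 0.05. That member was Chil3, a chitinase-like protein, with 3.75, 4.76 and 7.01 in anti-PD1 + HMB tumors, against 3.38, 3.91 and 4.74 in anti-PD1 tumors, a difference of 1.12 ± 0.44 (SE) at levels below background. Among the most used markers of that state, Mrc1, the mannose receptor CD206, was at 0.15 ± 0.36 and Arg1, arginase 1, at 0.14 ± 0.57 (SE). The Arg1 values of 4.13 to 7.11 lay almost wholly inside the anti-PD1 values of 4.57 to 7.497, and the sign changed with the processing. Stab1, a scavenger receptor, was at 0.56 ± 0.28 and Clec10a, a lectin, at 0.84 ± 0.46 (SE). Of 13 M1-like genes, 5 were higher and 8 lower, with a median of -0.12, or 0.13 without tumors 4, 5 and 6. The cytokine Il6, at -0.998 ± 0.37 (SE; limma, unadjusted p = 0.011), was the 1 member of that list with an unadjusted p under 0.05, with values of 2.58 to 4.26 against 3.15 to 5.53. Cd86, a ligand of Cd28 and Ctla4, was at 0.63 ± 0.31 (SE), or 0.38 without tumor 7.

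Of 15 dendritic cell genes, 11 were higher, with a median of 0.22. At an unadjusted p under 0.05, 3 were higher, against 1.85% of all genes. These were Ccr7, counted above, Fscn1, an actin bundler of mature dendritic cells, at 1.17 ± 0.48, and Itgae, the integrin CD103, at 0.78 ± 0.30 (SE). Without tumor 7 the median was 0.07, Fscn1 was at 0.74 and 1 member had an unadjusted p under 0.05. Antigen presentation and interferon genes were near level. MHC class I genes had a median of 0.01 over 19 genes, with H2-K1 at 0.20 ± 0.26 and B2m, its light chain, at 0.06 ± 0.12 (SE). MHC class II genes had a median of 0.26 over 11 genes, 10 of them higher, with H2-Aa at 0.18 ± 0.38 and H2-Ab1 at 0.26 ± 0.32 (SE), and the median was 0.06 without tumor 7. B2m values of 18.75 to 19.14 in anti-PD1 + HMB tumors and 18.69 to 19.12 in anti-PD1 tumors were among the brightest of the arrays and nearly coincided.

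Interferon-gamma response genes were higher for 7 of 25 with a median of -0.12, and type I interferon-stimulated genes for 7 of 27 with a median of -0.12. Leaving out tumor 7 gave medians of -0.048, with 11 of 25 higher, and 0.013, with 15 of 27 higher. The receptor chain Ifngr1, at 0.51 ± 0.23 (SE; limma, unadjusted p = 0.032), was the 1 member of both lists with an unadjusted p under 0.05. Without tumor 7 it was at 0.35 and 0 members had an unadjusted p under 0.05. Every anti-PD1 + HMB tumor was above the anti-PD1 mean for Ifngr1, with values of 13.22 to 14.73 against 12.88 to 13.52. The targets Irf1 and Isg15, a transcription factor and a ubiquitin-like protein, were at -0.37 ± 0.40 and -0.55 ± 0.40 (SE), or -0.21 and -0.32 without tumor 7.

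**Figure D4:**
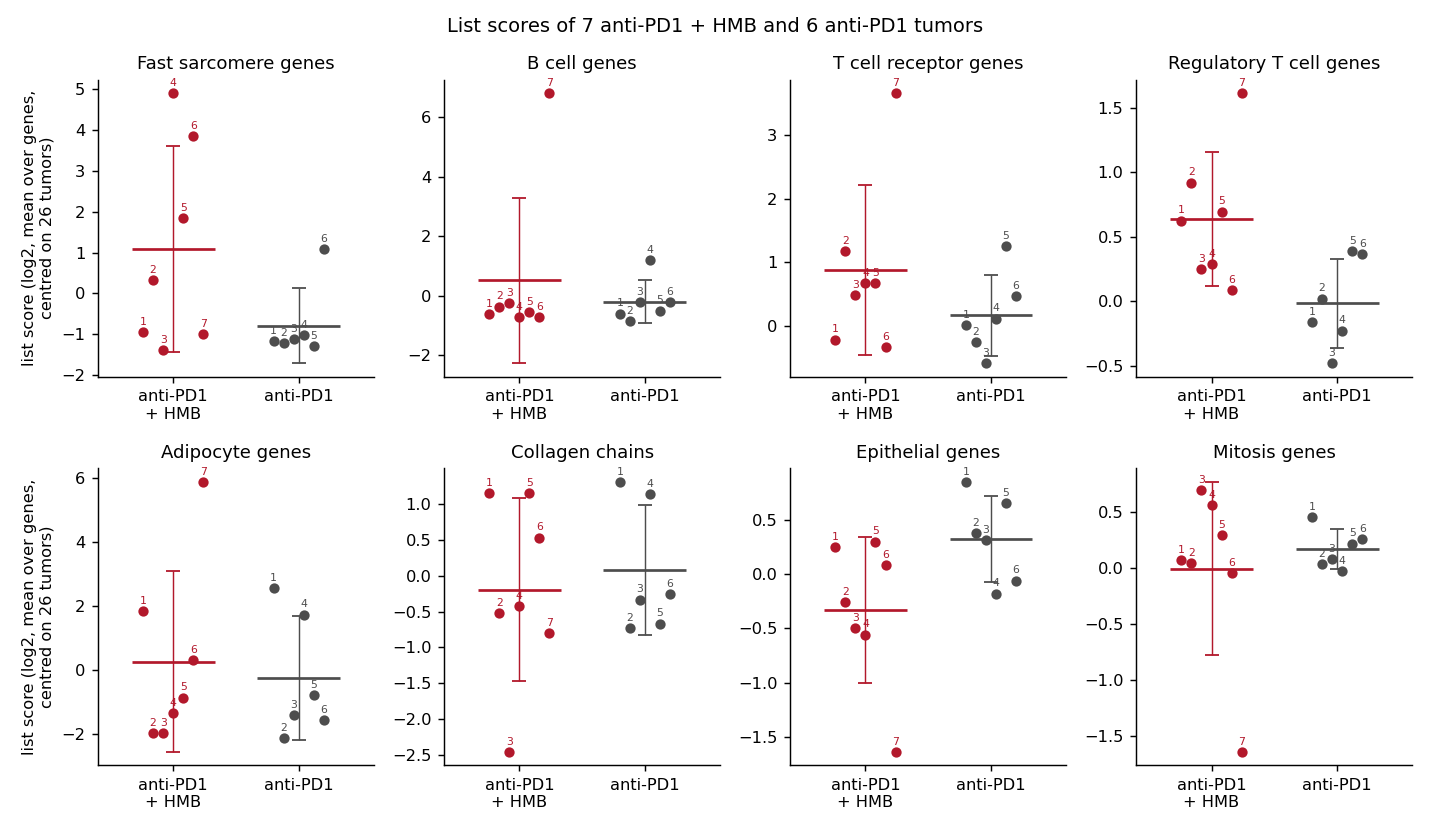
List score (vertical axes, mean of centred log2 values over the list's genes) of 8 gene lists in 7 anti-PD1 + HMB tumors (left in each panel) and 6 anti-PD1 tumors (right), with tumor numbers and lines for mean and SD. Tumor 7 of the anti-PD1 + HMB group is far from the others for B cell genes at 6.81, T cell genes at 3.66, adipocyte genes at 5.89 and mitosis genes at -1.64, and tumors 4, 5 and 6 carry the high sarcomere scores.

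Genes of fast skeletal muscle and of muscle calcium and energy supply had the largest list medians, and slow muscle genes came after the B cell and T cell lists. Of 25 fast and shared sarcomere genes, 24 were higher with a median of 1.77, and 7 had an unadjusted p under 0.05. Of 11 slow sarcomere genes all were higher, with a median of 0.62 and 2 at an unadjusted p under 0.05. Of 22 genes of muscle calcium handling and energy supply, 21 were higher with a median of 0.83 and 3 at an unadjusted p under 0.05. Over all genes, 1.85% were higher at that p. All 3 medians went with tumors 4, 5 and 6 of the anti-PD1 + HMB group: without them they were 0.04, -0.05 and 0.01. The muscle score over the 3 lists was 3.86, 1.18 and 2.71 in those tumors and between -0.93 and 0.05 in the other 4, against 0.57 in anti-PD1 tumor 6 and -0.99 to -0.70 in the other 5 anti-PD1 tumors.

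Acta1, the actin of skeletal muscle thin filaments, had 3.21, 8.20 and 15.78 in anti-PD1 + HMB tumors, against 3.37, 3.84 and 9.59 in anti-PD1 tumors. Its difference was 4.39 ± 2.01 (SE; limma, unadjusted p = 0.038), and 0.52 without tumors 4, 5 and 6, the 3 tumors in which it was above background. Myh4, the myosin heavy chain of the fastest fibers, had 3.16, 7.18 and 16.25, against 3.19, 4.24 and 8.17, a difference of 3.80 ± 2.05 (SE), and Myl1, a fast myosin light chain, was at 3.94 ± 1.602 (SE). Atp2a1, the calcium pump of the sarcoplasmic reticulum, had 4.0, 7.85 and 15.23, against 3.48, 3.75 and 8.21, a difference of 4.42 ± 1.87 (SE). Tumors 4 and 6 of the anti-PD1 + HMB group were the highest for each of these genes, and tumor 6 was the highest of the anti-PD1 group. Tumor 5 of the anti-PD1 + HMB group came next for Acta1, Myl1 and Atp2a1, but its Myh4 value of 7.18 was below the 9.02 of tumor 2. Neb, the thin-filament ruler nebulin, was at 2.87 ± 1.22, Des, the muscle filament desmin, at 2.88 ± 1.296, and Cmya5, which associates with the Z-disc, at 1.32 ± 0.53 (SE). Ckm, the muscle creatine kinase, was at 1.53 ± 0.72, Pvalb, a calcium buffer of fast fibers, at 2.72 ± 1.33, and the slow genes Mybpc1 and Tnnt1, a myosin-binding protein and a troponin, at 2.64 ± 1.23 and 0.91 ± 0.43 (SE).

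Muscle transcription is controlled in part by E-boxes, short sites for MyoD-family factors. The promoter windows below, from 250 bases before to 50 bases after the start site, are shown because these genes varied together from tumor to tumor. They were taken from RefSeq for build GRCm38.p6 and read 5′ to 3′ on the gene's strand, with the E-box CAGCTG in capitals. Acta1 lies at chr8:123894726-123895025 on the minus strand, Myh4 at chr11:67237562-67237861 on the plus strand and Atp2a1 at chr7:126463024-126463323 on the minus strand.
Acta1: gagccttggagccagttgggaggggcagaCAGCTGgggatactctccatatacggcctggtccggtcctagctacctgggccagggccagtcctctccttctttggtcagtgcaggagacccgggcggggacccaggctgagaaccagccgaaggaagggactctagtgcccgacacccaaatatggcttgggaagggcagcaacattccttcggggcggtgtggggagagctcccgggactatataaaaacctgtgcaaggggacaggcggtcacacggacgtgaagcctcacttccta
Myh4: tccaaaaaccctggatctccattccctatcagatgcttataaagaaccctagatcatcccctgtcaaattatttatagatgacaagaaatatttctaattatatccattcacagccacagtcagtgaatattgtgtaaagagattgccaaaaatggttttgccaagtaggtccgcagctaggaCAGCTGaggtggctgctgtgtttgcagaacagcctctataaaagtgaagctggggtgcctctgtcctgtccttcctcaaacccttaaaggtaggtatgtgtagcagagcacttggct
Atp2a1: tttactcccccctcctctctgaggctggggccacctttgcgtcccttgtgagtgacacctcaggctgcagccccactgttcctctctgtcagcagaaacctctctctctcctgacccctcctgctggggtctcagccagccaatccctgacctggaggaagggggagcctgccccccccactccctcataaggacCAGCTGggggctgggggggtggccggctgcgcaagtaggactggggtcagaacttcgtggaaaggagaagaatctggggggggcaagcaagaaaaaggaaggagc
CAGCTG reads the same on both strands. It stood in 27 of 55 windows of the muscle list genes (49.1%), against 5355 of 32851 windows of all genes (16.3%). Of the 58 muscle list genes, 44 had a promoter window in the set, with or without the motif. A match describes the letters only and is not evidence of binding. The MyoD-family genes Myod1, Myf5 and Myog were below background in every tumor. Myod1 ran from 1.90 to 3.06, Myf5 from 2.10 to 2.73 and Myog from 2.51 to 4.845, its highest in anti-PD1 + HMB tumor 4. Their part in the muscle values was not tested.

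Factors that build or waste muscle were less uniform. Of 15 myogenic and atrophy genes, 11 were higher with a median of 0.22, and 3 higher and 1 lower had an unadjusted p under 0.05. Mef2c, a factor of muscle, B cells and vessels, was at 1.102 ± 0.46 (SE) with its highest value, 13.54, in tumor 7, and at 0.61 without that tumor. Fbxo40, a muscle ubiquitin ligase subunit, was at 1.25 ± 0.61, Mstn, the growth inhibitor myostatin, at 0.50 ± 0.24, and Pax3, a factor of muscle progenitors, at -0.37 ± 0.15 (SE). These 3 genes were below background throughout.

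Epithelial genes leaned the other way. Of 17 measured, 14 were lower and 3 higher, with a median of -0.52, and 5 were lower at an unadjusted p under 0.05, against 2.33% of all genes in that direction. Only 2 of the 17 were above background in both groups. Without tumor 7 the median was -0.24, with 14 lower and 2 at an unadjusted p under 0.05, and without tumors 4, 5 and 6 it was -0.71 with 6. The epithelial score was -1.64, -0.26 and 0.30 (lowest, median, highest) in anti-PD1 + HMB tumors, against -0.18, 0.35 and 0.85 in anti-PD1 tumors.

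Krt19 had 4.98, 6.28 and 7.70 in anti-PD1 + HMB tumors, against 5.95, 9.08 and 9.68 in anti-PD1 tumors, a difference of -2.33 ± 0.79 (SE; limma, unadjusted p = 0.0067). All anti-PD1 + HMB tumors were below 5 of the 6 anti-PD1 tumors, and anti-PD1 tumor 4 was the exception. Esrp1, a splicing factor that keeps epithelial isoforms, had 3.36, 5.82 and 7.87, against 6.84, 7.87 and 9.26, a difference of -2.03 ± 0.76 (SE; limma, unadjusted p = 0.013). Of the anti-PD1 + HMB tumors, 4 were below the anti-PD1 range for Esrp1, and tumors 1, 5 and 6 were within it. Krt8, the member with the brightest signal named here, had 13.01, 14.87 and 15.04, against 14.78, 15.12 and 15.54, a difference of -0.61 ± 0.28 (SE), or -0.35 without tumor 7. Muc1, a surface mucin, was at -1.10 ± 0.50, and Epcam at -1.09 ± 0.82 (SE). Cdh1, which encodes E-cadherin, did not share this, at 0.20 ± 0.74 (SE). Its median was 11.73 in anti-PD1 + HMB tumors and 10.66 in anti-PD1 tumors, and its lowest value belonged to anti-PD1 + HMB tumor 7. Cdh1 was above background in 5 of the 7 anti-PD1 + HMB tumors and in 2 of the 6 anti-PD1 tumors. Krt19, Esrp1, Muc1 and Epcam were below background on all 13 arrays.

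The repressors ZEB1 and ZEB2 are known to bind E-boxes of the form CACCTG in epithelial promoters. Zeb1, given above, was the one measured here, since Zeb2 was not represented by a named probe set. Promoter windows of 3 epithelial genes are shown as a description, from the same RefSeq set and build. CACCTG is in capitals, or its complement CAGGTG where the site lies on the other strand. Muc1 lies at chr3:89228806-89229105 on the plus strand, Epcam at chr17:87635729-87636028 on the plus strand and Krt8 at chr15:102004293-102004592 on the minus strand.
Muc1: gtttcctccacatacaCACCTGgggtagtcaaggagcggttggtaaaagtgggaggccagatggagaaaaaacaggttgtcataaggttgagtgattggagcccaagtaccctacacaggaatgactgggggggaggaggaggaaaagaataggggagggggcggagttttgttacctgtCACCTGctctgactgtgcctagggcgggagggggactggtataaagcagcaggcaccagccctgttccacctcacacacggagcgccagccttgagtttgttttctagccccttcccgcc
Epcam: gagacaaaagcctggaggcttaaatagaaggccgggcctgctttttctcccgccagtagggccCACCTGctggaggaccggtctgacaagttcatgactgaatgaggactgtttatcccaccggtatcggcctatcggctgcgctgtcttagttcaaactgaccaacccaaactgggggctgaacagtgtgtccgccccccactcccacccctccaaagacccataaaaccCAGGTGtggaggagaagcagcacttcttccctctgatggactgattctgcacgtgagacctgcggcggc
Krt8: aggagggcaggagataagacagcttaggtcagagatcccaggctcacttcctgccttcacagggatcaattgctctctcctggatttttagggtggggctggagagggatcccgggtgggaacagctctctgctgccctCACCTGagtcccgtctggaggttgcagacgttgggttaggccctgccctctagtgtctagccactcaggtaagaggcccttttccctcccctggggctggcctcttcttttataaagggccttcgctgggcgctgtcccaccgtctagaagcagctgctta
Both strands were searched, and the letters stood in 11 of 13 windows of the epithelial list genes (84.6%), against 6640 of 32851 windows of all genes (20.2%). Of the 17 epithelial list genes, 11 had a promoter window in the set, with or without the motif. The motif does not overlap CAGCTG, and no value here bears on binding at these sites. A link between Zeb1 and the epithelial genes was not tested. In anti-PD1 + HMB tumor 1, Zeb1 was at 12.69 and the epithelial score at 0.25. In tumor 7 of that group they were at 12.69 and -1.64.

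Keratinocyte genes of skin were lower for 17 of 20, with a median of -0.48. At an unadjusted p under 0.05, 2 were lower, against 2.33% of all genes. The negative median rested on anti-PD1 tumor 6, whose skin score of 1.81 was the highest of the 13. Without that tumor the median was -0.12 with 7 of 20 higher. Krt1 and Krt5, keratins of differentiated and basal epidermis, reached 9.51 and 8.402 in that tumor, and their differences were -1.22 ± 0.63 and -0.84 ± 0.69 (SE). Krt15, another basal keratin, was at -0.81 ± 0.36 and Krt14 at -1.95 ± 1.13 (SE).

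Fat, matrix and vessel genes varied within each group more than between them. Adipocyte genes were higher for 17 of 18 with a median of 0.46, yet without tumor 7 the median was -0.39 with 15 of 18 lower. The adipocyte score ran from -1.97 to 5.89 in anti-PD1 + HMB tumors, against -2.11 to 2.58 in anti-PD1 tumors, and Plin1, the lipid droplet protein perilipin, was at 0.42 ± 1.36 (SE). Collagen genes were lower for 14 of 17 with a median of -0.24 and 0 at an unadjusted p under 0.05, and the median was 0.06 without anti-PD1 tumor 1 and -0.46 without anti-PD1 + HMB tumors 4, 5 and 6. Col1a1, a chain of type I collagen, had 8.56, 13.93 and 16.52 in anti-PD1 + HMB tumors, against 13.79, 14.32 and 16.12 in anti-PD1 tumors, a difference of -0.90 ± 1.15 (SE). Tumor 3 of the anti-PD1 + HMB group had the lowest collagen score, -2.46, and Col1a2, the partner chain at -0.89 ± 1.25 (SE), was at 0.03 without that tumor.

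Endothelial genes were higher for 16 of 18 with a median of 0.41, and 3 had an unadjusted p under 0.05, against 1.85% of all genes in that direction. Without tumor 7 the median was 0.0038 with 9 of 18 higher and 0 at an unadjusted p under 0.05. The 3 genes were Sox18, a vessel transcription factor, at 1.104 ± 0.44, Ptprb, an endothelial phosphatase, at 0.90 ± 0.38, and Plvap, a protein of capillary fenestrae, at 0.88 ± 0.38 (SE), with Ptprb at 0.53 without tumor 7 and Sox18 at 0.71 without tumors 4, 5 and 6. The more general markers Pecam1, the adhesion molecule CD31, and Cdh5, VE-cadherin, were at 0.41 ± 0.44 and 0.44 ± 0.37 (SE), and at -0.03 and 0.20 without tumor 7.

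Proliferation genes were slightly lower by their sign, and again tumor 7 carried this. Of 27 mitosis genes, 25 were lower with a median of -0.17, and of 26 S phase genes, 21 were lower with a median of -0.19, with 0 at an unadjusted p under 0.05 in either list. Without tumor 7 the medians were 0.11 and 0.04. Mki67, which encodes the Ki-67 antigen of cycling cells, had 13.91, 15.10 and 15.51 in anti-PD1 + HMB tumors, against 14.99, 15.11 and 15.33 in anti-PD1 tumors, a difference of -0.17 ± 0.22 (SE), or 0.01 without tumor 7. The medians of the groups nearly coincided. Top2a, a topoisomerase of dividing cells, was at -0.28 ± 0.31, Cdc20, an activator of the anaphase-promoting complex, at -0.47 ± 0.29, and Mcm2, a replication helicase subunit, at -0.27 ± 0.29 (SE), with Cdc20 at -0.18 without tumor 7.

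Genes that handle leucine and HMB were close to level. Of 15 leucine catabolism and HMB-related genes, 10 were higher with a median of 0.06. Auh, an enzyme of the leucine breakdown pathway, at 0.39 ± 0.19 (SE; limma, unadjusted p = 0.044), was the 1 member with an unadjusted p under 0.05, and there were 0 without tumor 7 or without anti-PD1 tumor 6. Bdh1, a ketone body dehydrogenase, was at 0.56 ± 0.29 and at 0.295 without tumor 7. Ivd, isovaleryl-CoA dehydrogenase, was at 0.48 ± 0.32 and Bcat2, the mitochondrial aminotransferase that starts leucine breakdown, at -0.16 ± 0.20 (SE). Of 21 genes of leucine sensing and mTORC1, 14 were higher with a median of 0.08 and 2 at an unadjusted p under 0.05, or 1 without tumor 7. Rragd, a Rag GTPase that recruits mTORC1 to lysosomes, had 3.13, 4.74 and 5.71 in anti-PD1 + HMB tumors, against 2.64, 3.09 and 4.18 in anti-PD1 tumors, a difference of 1.35 ± 0.47 (SE; limma, unadjusted p = 0.0085) at levels below background. It was at 0.79 without tumors 4, 5 and 6. Sesn2, a leucine sensor, was at 0.66 ± 0.30 and Mtor at 0.15 ± 0.13 (SE).

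Fatty acid oxidation genes had a median of 0.12 over 24 genes, 19 of them higher, and oxidative phosphorylation subunits a median of 0.06 over 36 genes, 24 of them higher. The oxidation median was 0.02 without tumor 7, with 13 of 24 higher, and -0.032 once the scores of muscle, fat and B cells were covariates. Pdk4, a kinase that switches the pyruvate dehydrogenase complex off and so opposes the phosphatase Pdp2 named above, had the smallest p of the oxidation list. Its values were 3.77, 5.96 and 10.89 in anti-PD1 + HMB tumors, against 3.38, 3.83 and 4.82 in anti-PD1 tumors, a difference of 3.03 ± 1.03 (SE; limma, unadjusted p = 0.0069). The 5 tumors other than 2 and 3 were above the anti-PD1 range, and the difference was 2.37 without tumor 7 and 2.22 without tumors 4, 5 and 6. Pdk4 was below background on all 13 arrays, and it is expressed in muscle and fat, whose scores were high in tumors 4, 5 and 6 and in tumor 7. With the muscle score as a covariate its difference was 2.16, and with those of fat and B cells added it was 0.88. The cause of the Pdk4 difference was not tested. Cpt1b, the carnitine palmitoyltransferase of muscle mitochondria, was at 0.65 ± 0.26 (SE). Among 9 pancreatic cancer driver genes, 6 were higher with a median of 0.05, and Smad4 was the 1 with an unadjusted p under 0.05.

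The effect of HMB without anti-PD1 was set beside these values from 7 HMB and 6 control tumors, which share no sample with the comparison above. There, 612 genes (3.14%) had an unadjusted p under 0.05 with a higher level in HMB tumors and 740 genes (3.79%) with a lower one, with 0 at an adjusted p under 0.05 and a smallest adjusted p of 0.33. The test of the difference between both effects of HMB, the interaction, gave 1086 genes at an unadjusted p under 0.05 (5.57%) and 0 after adjustment, with a smallest adjusted p of 0.32. Of the 24 leading genes above background, 9 had the same sign in both comparisons, 13 had an interaction p under 0.05, and 2 had an unadjusted p under 0.05 for HMB minus control. Since the 24 were picked for their size under anti-PD1, that share is a description.

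Sema3c was at -1.01 under anti-PD1 and at 0.62 ± 0.32 for HMB minus control (SE; limma, interaction, unadjusted p = 0.0011), and Igsf8 at -0.61 and 0.47 ± 0.20 (SE; limma, interaction, unadjusted p = 0.00059). Tns1 and Cavin2 were at -0.27 and -0.55 for HMB minus control, against 1.80 and 0.98 under anti-PD1. The epithelial genes had 8 of 17 members with an unadjusted interaction p under 0.05, against 5.57% of all genes. Krt19 was at -2.33 under anti-PD1 and at 2.31 ± 0.79 for HMB minus control (SE; limma, interaction, unadjusted p = 0.00032), and Esrp1 at -2.03 and 2.67 ± 0.76 (SE; limma, interaction, unadjusted p = 0.000195). These opposite signs did not pass the adjusted test. Sema3c, Igsf8, Krt19, Esrp1 and, below, Ctla4 were named for a small p under anti-PD1. The interaction contains that same difference, so their interaction p-values lean small by selection.

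Among lists, the muscle medians were alike in both comparisons: 1.77 under anti-PD1 and 1.61 without it for fast sarcomere genes, 0.62 and 0.45 for slow genes, and 0.83 and 0.82 for calcium and energy genes. High scores in part of the tumors lay behind the values without anti-PD1 as well. There, the fast sarcomere score ran from -1.15 to 5.64 in HMB tumors with a median of -0.72, against -1.36 to -1.01 in control tumors. Acta1 was at 4.39 under anti-PD1 and 3.80 ± 2.01 without it, and Pdk4 at 3.03 and 2.97 ± 1.03 (SE). Regulatory T cell genes had medians of 0.73 and -0.13, T cell receptor genes 0.63 and -0.06, interferon-gamma response genes -0.12 and -1.13, and MHC class I genes 0.01 and -0.61. M2-like macrophage genes had alike medians of 0.48 and 0.64, with 15 and 16 of 17 higher. Of these, 1 and 5 were higher at an unadjusted p under 0.05. M1-like genes were at -0.12 and -0.33. Collagen genes were at -0.24 and 0.91, and adipocyte genes at 0.46 and 1.69. The median adipocyte score was nevertheless lower in HMB tumors (-1.01, highest 4.21) than in control tumors (-0.85, highest -0.17). Ctla4 was at 1.76 under anti-PD1 and -0.43 ± 0.50 without it (SE; limma, interaction, unadjusted p = 0.0047). The medians of the lists are descriptions, and no test compared them.

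**Figure D5:**
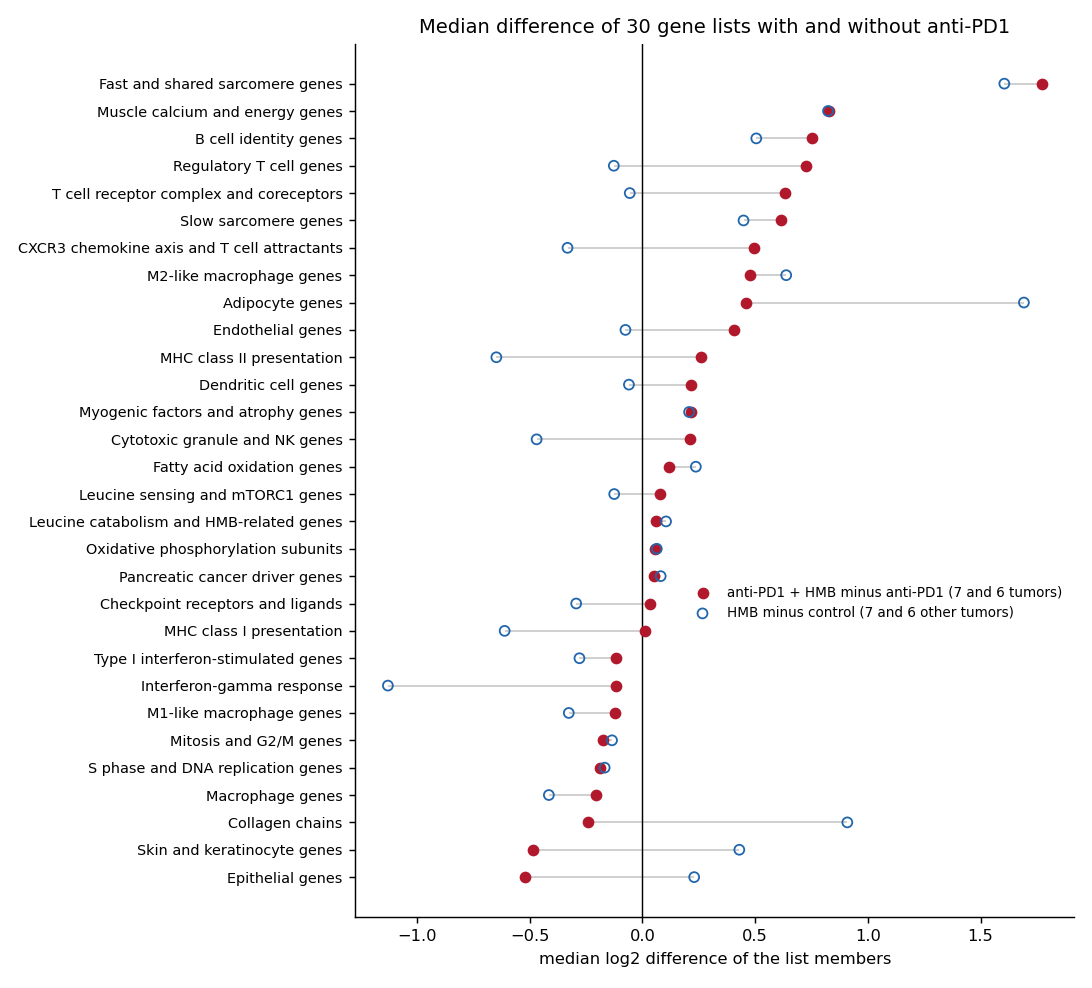
Median log2 difference of the genes of 30 lists (horizontal axis) for anti-PD1 + HMB minus anti-PD1 tumors (filled points) and for HMB minus control tumors (open points), ordered by the first. Fast sarcomere genes lie far to the right in both at 1.77 and 1.61, regulatory T cell genes at 0.73 and -0.13 differ, and epithelial genes lie at -0.52 and 0.23.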

How the data were processed

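The authors deposited 1 processed log2 value per probe set and array for 26 tumors. The software, background correction, normalization and log base were not stated in the sources read, and the log2 scale was inferred from the values. The array has 28846 probe sets, with values of 1.083 to 19.335, and 19572 had 1 gene symbol in the platform annotation. Where a gene had more than 1 probe set (55 genes), that of highest mean over 26 tumors was kept, which left 19505 genes. Array pairs correlated at 0.9316 to 0.9916, and none repeated another. No further normalization was applied.

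Groups followed the sample titles. Differences and SEs come from 1 limma fit (limma 3.58.1, R 4.3.3) of all 26 tumors with 22 residual degrees of freedom, tested on simulated data first, and p-values were adjusted by Benjamini-Hochberg over 19505 genes. Genes named were the 12 per direction with the smallest p above background, the 5 per direction over all genes, 4 members with the smallest p and the first 3 of each described list, and genes the study names as measurements on tumors, not all of which are printed. Families of leading genes were completed. The comparison, gene lists and tests were chosen with earlier results of these data known, including the names of gene sets that the study listed. Alternatives were other subsets of tumors, quantile normalization, variance models, array weights, probe set means, the methods' t-test, covariates, a replicate block and other background levels. Promoters came from RefSeq and serve as description.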

Additional observations from a re-analysis of the deposited data

Results flagged for a closer look

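For each named gene and each described list, the values of the 7 anti-PD1 + HMB tumors and of the 6 anti-PD1 tumors were searched for a single tumor far from the rest of its group by Dixon's criterion, and 56 of 298 groups held one. Chance alone gives about 1 in 20, and genes of one list were often high in the same tumor, so these are not 56 separate events. No cause was tested.

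Anti-PD1 + HMB tumor 7 was the highest of its group for the scores of T cell genes (3.66), B cell genes (6.81), dendritic cell genes (1.44) and endothelial genes (1.92), and the lowest for mitosis genes (-1.64). Its immune genes were high at log2 values of 14.99 for Cd79a, 12.77 for Ms4a1, 15.59 for Ebf1, 11.16 for Cd28, 12.08 for Icos, 9.80 for Cd5, 10.97 for Tnfrsf4, 5.77 for Gpr83, 8.85 for Cxcr3, 9.98 for Ccr7 and 11.96 for Cd86. The same tumor was high for the vessel genes Pecam1 (14.06) and Ptprb (9.98) and for Mef2c (13.54), Chd7 (14.02), Pkig (13.20), Auh (11.09) and Bdh1 (5.79). It was low for Krt8 (13.01), Top2a (11.22), Cdc20 (9.12), Elk3 (12.82), Csnk2a2 (11.62), Nab1 (11.02), Ciapin1 (10.36) and Il6 (2.58). Anti-PD1 + HMB tumor 4 was high for Nabp2 (13.72) and Tnnt1 (9.54).

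Anti-PD1 tumor 6 was the highest of its group for fast sarcomere (1.09), slow sarcomere (0.48) and skin genes (1.81). The muscle genes behind this were Acta1 (9.59), Myl1 (9.16), Atp2a1 (8.21), Myh4 (8.17), Ckm (7.07), Neb (6.72) and Mybpc1 (5.58), and the skin genes were Krt1 (9.51) and Krt5 (8.402). Its Nab1 value was also high (12.71). Anti-PD1 tumor 4 was high for B cell genes (1.2), with Cd79a at 8.87 and Ms4a1 at 5.84, and for Pdk4 (4.82), and it was the lowest for Cpt1b (4.90). Anti-PD1 tumor 2 was high for Fbxl20 (11.98) and for leucine catabolism genes (-0.013), tumor 1 for Epcam (9.17) and Top2a (13.76), and tumor 3 was the lowest for Nabp2 (12.62).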

How the results depend on the processing

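No gene had an adjusted p under 0.05 in any setting tried, and the smallest adjusted p in any of them was 0.464. Over 24 settings and 119 named genes, 2814 differences kept their sign and 42 did not. The counts at an unadjusted p under 0.05 moved more. Leaving out each tumor in turn gave 300 to 469 genes higher and 313 to 570 lower, and among genes above background 19 to 40 higher and 24 to 100 lower, with 24 without anti-PD1 + HMB tumor 7, 100 without tumor 1 of that group and 33 without anti-PD1 tumor 3. Against 62 lower genes above background, there were 31 with the 13 tumors fitted alone, 39 with array weights, 109 with a muscle covariate, 17 with muscle, adipocyte and B cell covariates, 38 when every array had to be above background, 100 without anti-PD1 + HMB tumors 4, 5 and 6, and 20 without tumors 4, 5, 6 and 7. Against 28 higher genes above background, there were 51 with the muscle covariate and 43 without tumors 4, 5 and 6. Without tumors 4, 5, 6 and 7, 272 of all genes were lower. The settings that leave out tumors 4 to 7 together were chosen after seeing the data. The causes were not tested.

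Same-numbered tumors of both groups share a number only: 3 of 6 pairs had deviations correlated above 0.1 (from -0.195 to 0.257), and 0 tumors correlated best with their own number. With the replicate block, 0 genes passed the adjusted test. At an unadjusted p under 0.05, 329 were higher and 338 lower, and among genes above background 20 were higher and 31 lower.

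The differences of 14 genes changed sign in at least 1 setting. With array weights, Cxcl9 was at 0.019, Ms4a1 at -0.33, Cd79a at -0.37 and Plin1 at -0.37. With the muscle covariate, Pdcd1 was at 0.052, Cxcl9 at 0.19 and Arg1 at -0.066. With 3 covariates, Pdcd1 was at 0.030, Cxcl9 at 0.33, Ms4a1 at -0.39, Cd79a at -0.52, Des at -0.044 and Mki67 at 0.027. Without tumors 4, 5 and 6, Arg1 was at -0.0048. Without tumors 4, 5, 6 and 7, Cd3e was at -0.077, Cxcl9 at 0.044, Ms4a1 at -0.78, Cd79a at -0.81, Adgre1 at 0.022, Des at -0.23, Plin1 at -0.19, Mki67 at 0.087 and Mcm2 at 0.15. Leaving out 1 tumor gave -0.40 to 0.32 for Pdcd1, -0.29 to 0.077 for Cxcl9, -0.71 to 1.23 for Ms4a1, -0.85 to 1.65 for Cd79a, -0.11 to 0.47 for Arg1, -0.60 to 1.08 for Plin1, -1.35 to 0.026 for Col1a2, -0.028 to 0.56 for Pecam1, -1.11 to 0.17 for Krt5, -0.25 to 0.012 for Mki67 and -0.42 to 0.039 for Mcm2. Most genes of the T cell, B cell, muscle, adipocyte and epithelial lists lay below background, and 7 against 6 tumors with a spread of this size limit what could be detected.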

Other observations

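Several other immune lists had a positive median, beside a median of -0.0094 over all genes, of which 48% were higher. Complement genes had a median of 0.25 over 12 genes, 7 of them higher, but of -0.23 over the 7 members above background. Mast cell genes had 0.18 over 10 genes, all of them higher, and T cell state transcription factors 0.28 over 11 genes, 10 of them higher. The T cell state score was 2.065 in anti-PD1 + HMB tumor 7 and at most 0.46 in the rest of that group, against at most 0.875 in anti-PD1 tumors. For complement these values were 1.261, 0.49 and 0.828. Neutrophil genes were at 0.08 over 16 genes, 9 of them higher. Plasma cell genes were at 0.48 over 10 genes, 8 of them higher, and their score was 2.20 in anti-PD1 + HMB tumor 7 and between -0.35 and 0.07 in the other tumors of that group, against -0.46 to 0.25 in anti-PD1 tumors. None of these lists but the plasma cell genes, with 1 member higher and 1 lower, had a member at an unadjusted p under 0.05.

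Lists of housekeeping machinery had smaller medians. Cytosolic ribosomal protein genes had a median of 0.0065 over 33 genes, proteasome genes -0.10 over 26 genes with 21 lower, MYC target and ribosome biogenesis genes -0.07 over 26 genes with 20 lower, and unfolded protein response genes 0.06 over 16 genes with 13 higher, with 0 members of the 4 lists at an unadjusted p under 0.05. Immediate early genes, which also respond to the handling of tissue, were lower for 15 of 20 with a median of -0.25. Their median was 0.27 for HMB minus control. An unadjusted interaction p under 0.05 was held by 8 of 20, against 5.57% of all genes. Fibroblast and matrix genes were at 0.0072 over 24 genes and at 1.06 for HMB minus control, and mast cell genes at 1.11 for HMB minus control. Epithelial-mesenchymal transition factors and targets were lower for 14 of 20 with a median of -0.15, Zeb1 being the 1 member higher at an unadjusted p under 0.05 and Cd44, a hyaluronan receptor, at -0.49 ± 0.195 (SE), the 1 lower. Cd44 was named after its values were seen. TGF-beta ligands, receptors and targets were at -0.01 over 17 genes. The medians of the remaining lists were between -0.11 for cholesterol synthesis and 0.13 for estrogen and retinoid response.

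At an unadjusted p under 0.05, 60 probe sets without a gene name were higher and 46 lower, and 0 passed after adjustment.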
